A study of Homo sapiens with 2 samples.

Results

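The genes described here encode the enzymes and transporters that carry glucose carbon through glycolysis, turn pyruvate into lactate or pass it to the mitochondrion, and run the pentose phosphate path. They were taken from a list of 36 genes. A gene was kept where the array had a probe set, a group of short probes that reports 1 transcript, annotated to that gene and no other. Of the 36 genes, 34 had such probe sets, of 19775 genes so covered on the whole array, and these 34 genes had 82 probe sets. The lactate transporters SLC16A1 and SLC16A3 had none and are not analysed here.

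The cells of interest were hyperexpression clone 4 of SK-N-MC, a human line called neuroepithelioma by the submitters and now placed in the Ewing tumour family, stably transfected with the human melanotransferrin (MTf) cDNA in the pCMV-Script vector. The cells they were set against were SK-N-MC transfected with the same vector without insert, vector control 1. The vector's CMV promoter is active in most cell types. Each group held 1 array from 1 stable line, so the values have no replicate error, no test was possible, and an effect of the insert cannot be told apart from a difference between the transfected lines or cultures.

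Glycolysis splits glucose into pyruvate in the cytosol with a small gain of ATP, and several of its steps are served by isoenzymes from separate genes that differ in tissue distribution and regulation. Pyruvate is then reduced to lactate, or imported by a carrier and oxidised by the pyruvate dehydrogenase complex, which dedicated kinases switch off. The pentose phosphate path branches off after the first step, yields NADPH and ribose phosphate, and returns carbon to glycolysis. Tumour cells commonly make lactate even where oxygen is present, and many glycolytic genes are textbook targets of hypoxia-inducible factors and of MYC.

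Most of these enzymes read nearly alike on both arrays, and the largest differences lay in the early steps of glycolysis. The isoenzymes HK1 and ALDOC were 2.49-fold and 2.02-fold higher in the MTf clone. PFKL was the lowest member, 1.72-fold lower on its brightest probe set, although a second probe set read 1.12-fold lower. On their brightest probe sets ALDOA, GAPDH, PGK1, ENO1, LDHA and LDHB, enzymes of the main route from glucose to lactate, lay within 1.1-fold of the control. Other enzymes of that route lay outside this limit: HK2, PKM and GPI were 1.37-fold, 1.22-fold and 1.11-fold lower. The value of a gene is that of its brightest probe set by mean signal. Fewer cells expressing a gene and less RNA per cell cannot be told apart in such bulk RNA. A signal floor of 208 was set from probe sets for genes these cells should not express, and 31 members lay above it on both arrays. ENO3 and FBP1 were above it in the clone only, and PDK4 on neither array. Of all 19775 genes, 442 were above it in the clone only, 1426 in the control only and 7112 on neither array.

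Of the 31 members above the floor on both arrays, the clone was higher by 2-fold or more for 2 and lower by as much for 0. Of all 10795 genes measured in the same way, the shares past these limits were 1.11% and 1.16%. At 1.5-fold, 3 members were higher and 1 was lower, against 5.27% and 5.92% of all genes, so 27 members lay within 1.5-fold. Within 1.2-fold lay 23 members, or 74.2%, against 60.2% of all genes. The median log2 ratio of clone over control was -0.076 over the members and 0.0089 over all genes, a relative median of -0.085. Of the 31 members, 14 lay above the median of all genes and 17 below it.

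The spread of these ratios depended on signal, and the members are bright genes. For 10 members with a mean signal of 20000 or more, the log2 ratios had an SD of 0.12 and ran from -0.28 to 0.12. The 420 other genes in that range had an SD of 0.18. From 5000 to 20000, the SD was 0.17 over 10 members and 0.24 over 1987 other genes. From 1000 to 5000 it was 0.36 over 8 members and 0.33 over 4990 other genes. The 3 dimmest members above the floor on both arrays were HK1, ALDOC and PC, with a median log2 ratio of 1.02, whereas 3367 other genes with mean signals from 208 to 1000 had a median of -0.050, with 5th and 95th percentiles of -0.90 and 0.74. HK1 and ALDOC lay above that 95th percentile and PC did not. The plot of ratio against signal shows most members in the dense part of the cloud of other genes, and HK1 and ALDOC in its sparse upper part.

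**Figure D1:**
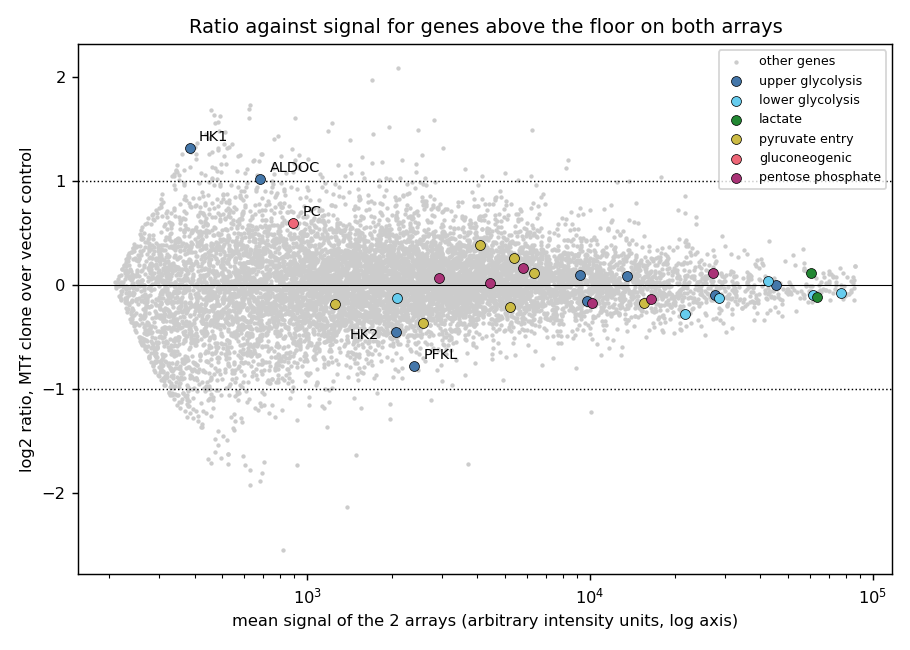
Log2 ratio of the MTf clone over the vector control (vertical) against the mean signal of the 2 arrays (horizontal, log axis, arbitrary intensity units), 1 point per gene above the floor on both arrays. Grey points are other genes, coloured points are members by role, and dotted lines mark 2-fold. With the scaling as deposited, HK1 and ALDOC lie above the upper line, no member lies below the lower line, and the brightest members sit close to 0.

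On the array as a whole, 1 of the 4 probe sets for the transfected gene, MELTF, read 4449.4 in the clone and 18.4 in the control, at least 21.4-fold higher, and the other 3 did not show this. Both arrays had been scaled to the same trimmed mean. Hybridisation spikes, transcripts added to the labelled sample, gave a median clone-over-control ratio of 0.706 and poly-A spikes 1.53, and centring on these spikes moved the median of all genes to 0.50 and -0.59 on the log2 scale. Directions below hold for the deposited scaling, relative to all genes. ALDOC was higher and PFKL lower under both spike centrings and under each other alternative that gave them a value. HK1 was higher in the 6 alternatives that gave it a value, which leave out the centring on hybridisation spikes. Each of the other 28 members turned direction in at least 1. Probe sets for genes the cells should not express had a median of 44.0 in the clone and 67.4 in the control. Within a gene, the log2 ratios of its probe sets had a pooled SD of 0.35 over 5387 genes, or 0.33 over the 19 members with several probe sets above the floor. All 7 analysed Ewing tumour markers, CAV1, CCK, STEAP1 and CD99 the brightest, lay above the floor on both arrays, with log2 ratios from -0.048 to 0.47. Among markers of other cells, 4 of 6 leukocyte and 3 of 5 erythroid markers were below the floor on both arrays. The leukocyte marker PTPRC was bright, at 13942.6 in the clone and 15581.1 in the control, and CD79A read 1115.3 in the clone and 837 in the control. Of 7 fibroblast markers, 6 were above the floor on both arrays, with a relative median of 0.021.

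**Figure D2:**
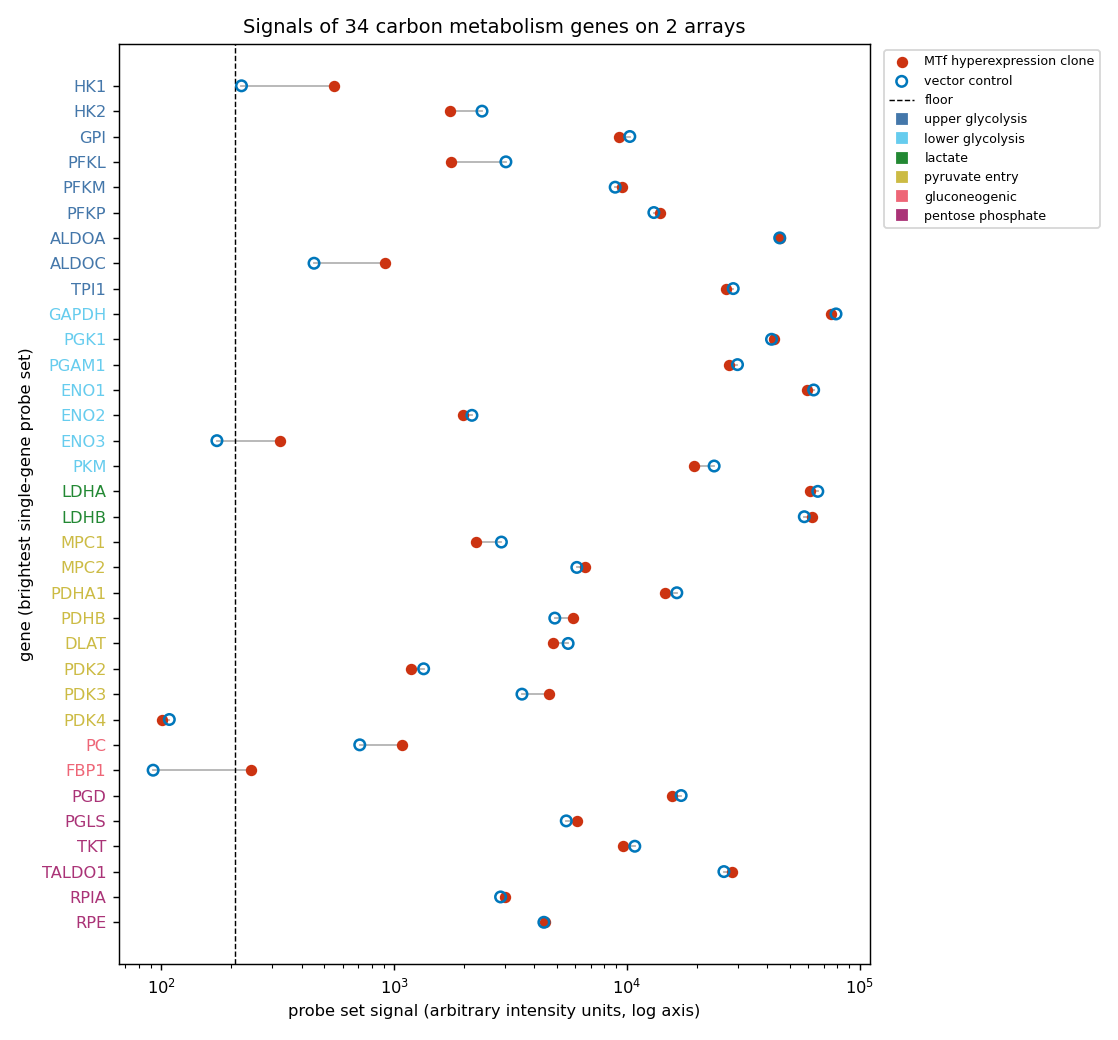
Probe set signal (horizontal, log axis, arbitrary intensity units) of the 34 genes with a single-gene probe set, filled for the MTf clone and open for the vector control, with gene names coloured by role and the floor of 208 dashed. Most pairs of points overlap or nearly touch, and HK1, ALDOC and PFKL are among the pairs farthest apart, along with ENO3 and FBP1, whose control signals lie below the floor.

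Promoter sequences show what letters lie next to genes that differed and next to genes that read nearly alike. Hypoxia-inducible factors bind a short core, ACGTG or GCGTG, and MYC and the glucose-sensing partners of MLX bind CACGTG, which reads as ACGTG on both strands. RefSeq promoter windows on GRCh38.p14, from 250 bases before to 50 after an annotated start, were found for 35 of the 36 genes, 66 windows in all. The 4 printed have 1 annotated start each: ALDOC and PFKL lie at the 2 ends of the range among such members, and PGK1 and GAPDH read nearly alike on both arrays. Capitals mark ACGTG and GCGTG on either strand. The windows are chr17:28576846-28577145 (minus strand) for ALDOC, chr21:44299803-44300102 (plus strand) for PFKL, chrX:78103998-78104297 (plus strand) for PGK1 and chr12:6535014-6535313 (plus strand) for GAPDH.
ALDOC: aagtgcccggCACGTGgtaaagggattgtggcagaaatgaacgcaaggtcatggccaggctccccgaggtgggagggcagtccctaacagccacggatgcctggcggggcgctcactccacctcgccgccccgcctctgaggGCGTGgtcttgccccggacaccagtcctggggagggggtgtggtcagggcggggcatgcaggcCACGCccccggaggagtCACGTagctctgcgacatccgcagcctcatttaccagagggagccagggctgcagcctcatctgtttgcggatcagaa
PFKL: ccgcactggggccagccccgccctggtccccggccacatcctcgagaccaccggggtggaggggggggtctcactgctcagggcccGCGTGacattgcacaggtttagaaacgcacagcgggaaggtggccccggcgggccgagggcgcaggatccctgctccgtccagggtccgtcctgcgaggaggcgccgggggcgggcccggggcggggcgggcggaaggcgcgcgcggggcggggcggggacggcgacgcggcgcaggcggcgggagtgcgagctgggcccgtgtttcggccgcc
PGK1: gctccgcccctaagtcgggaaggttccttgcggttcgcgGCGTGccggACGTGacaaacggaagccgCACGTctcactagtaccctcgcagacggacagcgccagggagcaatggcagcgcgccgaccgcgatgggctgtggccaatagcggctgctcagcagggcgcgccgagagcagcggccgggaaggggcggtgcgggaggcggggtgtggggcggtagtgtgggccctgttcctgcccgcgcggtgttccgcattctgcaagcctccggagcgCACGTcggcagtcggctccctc
GAPDH: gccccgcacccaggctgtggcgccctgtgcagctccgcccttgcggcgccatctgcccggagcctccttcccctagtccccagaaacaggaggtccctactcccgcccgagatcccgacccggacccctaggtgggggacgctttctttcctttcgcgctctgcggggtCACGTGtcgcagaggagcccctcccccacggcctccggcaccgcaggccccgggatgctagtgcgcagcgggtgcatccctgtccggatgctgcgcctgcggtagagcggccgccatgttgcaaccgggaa

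ALDOC held 3 matches to ACGTG, 2 of them from 1 CACGTG counted on both strands, and 2 to GCGTG. PGK1, which read nearly alike on both arrays, held 3 and 1. GAPDH held 2 matches to ACGTG, both from 1 CACGTG, and PFKL only 1 match to GCGTG. None of the 7 HK1 windows held ACGTG, and 2 held GCGTG. Over the member windows, ACGTG was present in 33.3% against 21.4% of all 35116 windows, GCGTG in 42.4% against 36.5%, and CACGTG in 10.6% against 7.26%. The 17 measured members with ACGTG in any window had a median log2 ratio of -0.076, from -0.45 to 1.02. The 14 without it had a median of -0.038, from -0.78 to 1.31. The ranges of members with and without the core overlapped. A match is a description of the letters, and genes with more annotated starts have more windows in which to hold one.

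Glucose is trapped in the cell by hexokinases. HK1, the widely expressed form that binds mitochondria, read 549 in the clone and 220.8 in the control on its only probe set, a log2 ratio of 1.31. The control signal was just above the floor, so the ratio depends on where the floor is put. With the floor at the 95th percentile of the same background probe sets, 265.7, HK1 was at least 2.07-fold higher, and with the floor 2 times as high, at least 1.32-fold. HK2, the inducible form that is prominent in tumours, differed in the other direction, at 1744.7 in the clone and 2385.4 in the control, a log2 ratio of -0.45. Its second probe set read 362.5 in the clone and 395.4 in the control. Its dimmest read 201.2 in the clone, below the floor, and 276.6 in the control. All 3 probe sets of HK2 were thus lower in the clone. GPI, the isomerase that makes fructose phosphate, read 9262 in the clone and 10295.2 in the control, a log2 ratio of -0.15.

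Phosphofructokinase commits the sugar to glycolysis and is built from muscle (PFKM), platelet (PFKP) and liver (PFKL) subunits. PFKM read 9536.1 in the clone and 8907.6 in the control. PFKP read 13854.5 in the clone and 13062.4 in the control, and its second, dim probe set read 430.1 in the clone and 238.1 in the control, a log2 ratio of 0.85. On their brightest probe sets, PFKM and PFKP had nearly equal log2 ratios of 0.098 and 0.085. PFKL read 1760.9 in the clone and 3021.2 in the control on its brightest probe set, which is of a type that can share sequence with other genes, a log2 ratio of -0.78. The second, also of a shared type, read 2131.9 in the clone and 2390 in the control, a log2 ratio of -0.16. The 2 values lie further apart than the SD of 0.49 that the pooled SD between probe sets implies for a difference, so the size of the PFKL difference is not settled.

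Aldolase splits the sugar into trioses. ALDOC, the brain form, read 915.2 in the clone and 452.6 in the control on its only probe set, a log2 ratio of 1.02. ALDOA, the muscle and general form, read 45351.2 in the clone and 45371.2 in the control, with log2 ratios from -0.22 to 0.055 over 3 probe sets. The difference was thus seen for the brain form and not for the general form. Of 7 neuron markers, 4 were below the floor on both arrays and SYP was above it in the control only, at 29.4 in the clone and 226.2 in the control. The signals of the neuron markers summed to 17389.4 in the clone and 17683.4 in the control, most of it from the brightest TUBB3 probe set. The other TUBB3 probe set read 18035.8 in the clone and 12015.6 in the control, a log2 ratio of 0.59. SNAP25 had log2 ratios of -0.38 and 0.41 on its probe sets above the floor. RBFOX3 and STMN2 were below the floor on both arrays. The part of neuron transcripts in the ALDOC value was not tested. TPI1, which interconverts the trioses, read 26797.9 in the clone and 28647.9 in the control, with log2 ratios from -0.096 to 0.19 over 3 probe sets. Over the 9 genes of the upper part of glycolysis, from hexokinase to TPI1, the relative median was -0.0096, with 4 genes above the median of all genes and 5 below. Without HK1 and ALDOC, left out after their values were seen, it was -0.11.

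The energy-yielding steps from triose to pyruvate showed no member past 1.5-fold among the 6 above the floor on both arrays. Of all genes, only 5.27% were higher and 5.92% lower by as much. The relative median of these 6 genes was -0.12, and 5 of them lay below the median of all genes. GAPDH, the triose phosphate dehydrogenase often used as a reference gene, read 75132.2 in the clone and 79203.4 in the control, and its 6 probe sets, 3 of them array control probe sets, had log2 ratios from -0.076 to 0.073. PGK1, the kinase of the first ATP-forming step, read 43088.6 in the clone and 41841 in the control. Its 4 brighter probe sets had log2 ratios from -0.22 to 0.042. The 2 dimmest read 936 and 563.2 in the clone, against 579.2 and 403.2 in the control, log2 ratios of 0.69 and 0.48. The dim and bright probe sets of PGK1 therefore gave different answers within the same RNA.

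PGAM1, the mutase, read 27428.9 in the clone and 29881 in the control, a log2 ratio of -0.12. Enolase has a general form, ENO1, a neuronal form, ENO2, and a muscle form, ENO3. ENO1 read 59479 in the clone and 63481.8 in the control, with log2 ratios from -0.26 to 0.10 over 4 probe sets. ENO2 read 1982.5 in the clone and 2158.8 in the control, a log2 ratio of -0.12. These 2 forms had nearly the same ratio. ENO3 read 324.7 in the clone and 173.1 in the control, which is below the floor and puts the clone at least 1.56-fold higher. Its second probe set was below the floor on both arrays, at 25.4 in the clone and 95.3 in the control. Of 8 muscle markers, 6 were below the floor on both arrays and 2, ACTA1 and TNNT3, were above it in the control only, at 35.5 and 155.7 in the clone and 279.1 and 681.7 in the control. CKM, MYOD1 and MYOG were below the floor on both arrays. The 8 signals summed to 553.3 in the clone, all of it from values below the floor, and 1624.2 in the control, and the part of muscle transcripts in the ENO3 value was not tested.

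PKM, the pyruvate kinase gene that makes the spliced muscle and tumour forms, was lower in the clone on both probe sets. It read 19508 in the clone and 23716.4 in the control, a log2 ratio of -0.28. The second probe set, of a shared type, read 547.3 in the clone and 919.3 in the control, a log2 ratio of -0.75. The splice forms of PKM were not separated here. The PKM ratio of -0.28 was the lowest among the 10 members with mean signals of 20000 or more, and just below the 5th percentile of the 420 other genes of that range, -0.27.

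Lactate dehydrogenase is a tetramer of LDHA subunits, which favour lactate formation, and LDHB subunits, which favour its use. LDHA read 60974.2 in the clone and 66148 in the control, a log2 ratio of -0.12. LDHB read 62661.3 in the clone and 57876.7 in the control, with log2 ratios of 0.11 and 0.025 over 2 probe sets. The 2 subunits differed in direction, but their log2 ratios were only 0.23 apart. The pooled SD between probe sets implies an SD of 0.29 for a difference of 2 genes with mean signals over 2000. Both lie near the top of the signal scale, whose highest values were 96587.4 in the clone and 93926.7 in the control. Whether signals are compressed there was not tested.

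**Figure D3:**
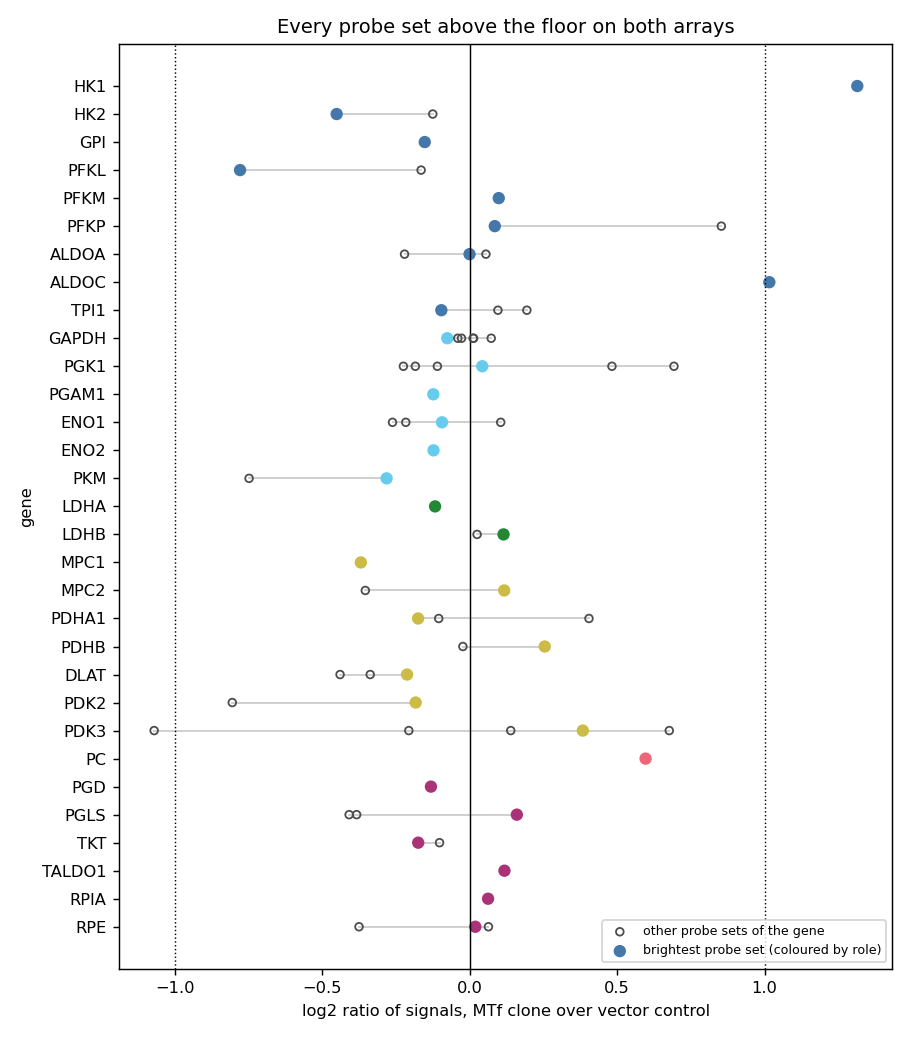
Log2 ratio of the MTf clone over the vector control for every probe set with both signals above the floor, by gene, in the order of the pathway. Filled points are the brightest probe set of a gene, open points its other probe sets, grey lines join them, and dotted lines mark 2-fold. HK1 and ALDOC rest on 1 probe set each, the 6 GAPDH probe sets nearly coincide, and the 5 PDK3 probe sets run from -1.07 to 0.68.

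Pyruvate enters the mitochondrion through a carrier made of MPC1 and MPC2. MPC1 read 2237.1 in the clone and 2889.7 in the control, a log2 ratio of -0.37, and its second probe set was below the floor on both arrays. MPC2 read 6609 in the clone and 6094.8 in the control on its brightest probe set and 486.5 in the clone and 621.8 in the control on its second, log2 ratios of 0.12 and -0.35. Only MPC1 was lower on its brightest probe set, and with probe sets of shared sequence left out the partners were 0.015 apart.

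The pyruvate dehydrogenase complex joins a decarboxylase of PDHA1 and PDHB chains to the acetyltransferase DLAT. PDHA1 read 14520.9 in the clone and 16394.6 in the control, with log2 ratios of -0.18, -0.11 and 0.40 over 3 probe sets. PDHB read 5845.8 in the clone and 4901 in the control, with log2 ratios of 0.25 and -0.023. Neither chain had probe sets that all pointed the same way. DLAT read 4826.1, 3309.1 and 2953.9 in the clone, against 5592, 4488 and 3732.4 in the control, log2 ratios of -0.21, -0.44 and -0.34. All 3 DLAT probe sets were lower in the clone, 1 of 6 members with several probe sets for which this held. The others were HK2, PFKL, PKM, PDK2 and TKT. PFKP and LDHB had all probe sets higher, and 11 members had probe sets on both sides.

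For the kinases that inactivate the complex, probe sets of 1 gene lay further apart than the genes did. PDK2 read 1179 in the clone and 1338.7 in the control on its brightest probe set, and 480.8 in the clone and 840.1 in the control on its second, log2 ratios of -0.18 and -0.81. PDK3, an isoform induced by hypoxia, read 4619.9 in the clone and 3541.8 in the control on its brightest probe set, a log2 ratio of 0.38. Its other probe sets read 1163.9, 883.6, 658.7 and 212 in the clone, against 728.2, 802.4, 760.1 and 445.1 in the control. Of the 5 PDK3 probe sets, 3 were higher and 2 lower, and the lowest, at -1.07, had a clone signal just above the floor. PDK4, the starvation-induced isoform, was below the floor on all 3 probe sets and both arrays. Over the 7 measured genes of pyruvate entry, the relative median was -0.18, with 3 genes above the median of all genes and 4 below.

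PC, the mitochondrial carboxylase that makes oxaloacetate from pyruvate, read 1075.6 in the clone and 711.5 in the control on its only probe set, a log2 ratio of 0.60 or 1.51-fold. That probe set is of a type that can share sequence with other genes. With HK1 and ALDOC, PC made up the 3 members more than 1.5-fold higher among those above the floor on both arrays, and ENO3 had a bound past that limit. FBP1, the bisphosphatase that reverses the phosphofructokinase step in liver and kidney, read 242.8 in the clone and 92.1 in the control. With the control value below the floor, the difference was at least 1.17-fold. FBP1 is the 1 analysed member on chromosome 9, where 445 genes measured on both arrays had a median log2 ratio of 0.48, and the part of this in the FBP1 value was not tested. Of 8 hepatocyte markers, 7, ALB and APOA1 among them, were below the floor on both arrays and CYP3A4 was above it on both. The summed hepatocyte signal was 839 in the clone and 968.3 in the control.

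In the pentose phosphate path no brightest probe set differed by more than 1.2-fold, and 60.2% of all genes also lay within that limit. PGD, the phosphogluconate dehydrogenase of the NADPH-forming arm, read 15618.7 in the clone and 17109.6 in the control, a log2 ratio of -0.13. PGLS, the lactonase before it, read 6133.2 in the clone and 5490.2 in the control, with log2 ratios of 0.16, -0.38 and -0.41 over 3 probe sets. In the arm that rearranges sugars, TKT, the transketolase, read 9583.5 in the clone and 10817.3 in the control. Its log2 ratios were -0.17 and -0.10, and another, dim probe set read 191 in the clone, below the floor, and 383 in the control. TALDO1, the transaldolase, read 28345.2 in the clone and 26124 in the control, a log2 ratio of 0.12. TKT and TALDO1, which hand carbon back to glycolysis together, thus differed slightly in opposite directions. RPIA and RPE, the ribose phosphate isomerase and epimerase, read 2992.6 and 4457.6 in the clone, against 2866.4 and 4399.6 in the control. The relative median of these 6 genes was 0.032.

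Related genes of 1 step can be compared by their clone-over-control ratios, which do not need signals of different probe sets to be on 1 scale. A common rescaling of an array leaves the difference of 2 such log2 ratios as it is. Most pairs are isoenzymes, but MPC1 with MPC2 and PDHA1 with PDHB are partner chains. Of 13 pairs listed, 10 could be compared because each gene passed the floor on both arrays. The largest difference was between HK1 and HK2, whose log2 ratios were 1.77 apart, or 3.40-fold, and 1.59 to 1.91 apart in the 6 alternatives that gave a value. ALDOC and ALDOA were 1.02 apart, or 2.02-fold. PFKM and PFKP were 0.88 and 0.86 above PFKL, whose brightest probe set has the lower ratio of its 2. The pooled SD between probe sets, 0.35, implies an SD of 0.49 for a difference of 2 genes. For genes with a probe set of mean signal under 500, as for HK1, it is 0.57. On the brightest probe sets these pairs exceed both values, but they are the widest of the 10. Each of HK1 and ALDOC rests on 1 probe set. Both PFKL probe sets are of a shared type, and the second had a log2 ratio of only -0.16. As medians of probe sets, PFKM and PFKP were 0.57 and 0.94 above PFKL. PDK3 lay 0.57 above PDK2, MPC2 0.49 above MPC1 and PDHB 0.43 above PDHA1, but without probe sets of shared sequence PDHB minus PDHA1 was -0.15. ENO2 minus ENO1 was -0.029 and PFKM minus PFKP 0.013, or -0.37 as medians of probe sets. These SDs cover disagreement between probe sets on the same arrays and leave out variation between cultures and lines.

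**Figure D4:**
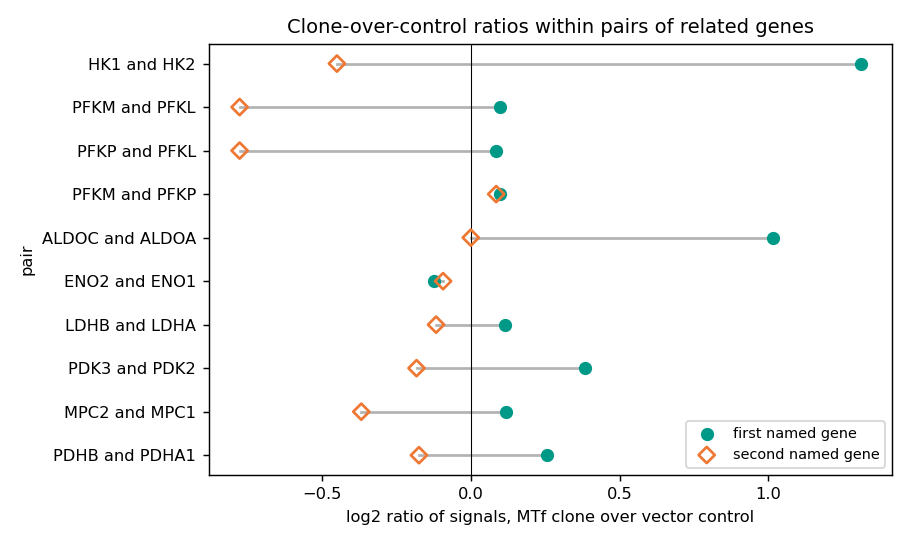
Log2 ratio of the MTf clone over the vector control for the 10 pairs of related genes measured on both arrays, filled circles for the first named gene and open diamonds for the second. The hexokinase pair is the widest at 1.77, the aldolase pair follows at 1.02, and the 2 enolases and the pair PFKM and PFKP nearly coincide.

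Other isoenzymes of these steps were largely below the floor. Of 22 listed, 19 had a single-gene probe set, of which 14 were below the floor on both arrays, HK3, HKDC1, PGAM2, PKLR and PCK1 among them. None of the 5 measured was past 2-fold in either direction, against 1.11% of all genes higher and 1.16% lower. ADPGK, a glucokinase that uses ADP, had a log2 ratio of -0.17, the lactate and pyruvate transporter SLC16A7 0.28, BPGM, which makes the red cell regulator bisphosphoglycerate, -0.024, and PCK2, the mitochondrial enzyme that makes phosphoenolpyruvate, -0.71. Glucose uptake, regulators and branches formed a second list of 34 genes, with 20 above the floor on both arrays, 3 in the control only and 8 on neither. Again 0 of the 20 were past 2-fold in either direction, against the same shares of all genes. The median log2 ratio of the 20 was 0.065. The brightest were DLD, the dehydrogenase of the pyruvate complex (-0.23), BSG, the chaperone of lactate transporters (0.27), and the serine synthesis enzymes PSAT1 (-0.015) and PHGDH (-0.43).

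Of the 20 genes of that list above the floor on both arrays, 2 were at least 1.5-fold higher and 1 was lower. The shares of all genes past these limits were 5.27% and 5.92%. The genes past 1.5-fold are named after their values were seen. SLC2A8, an intracellular glucose transporter on chromosome 9, read 613.6 in the clone and 345 in the control on its brightest probe set and 296.1 in the clone and 260.3 in the control on the other. PDK1, another pyruvate dehydrogenase kinase, read 1463.3 in the clone and 910.7 in the control, and a second probe set went the other way, at 410.8 in the clone and 535.6 in the control. The remaining one read 389.9 in the clone and 146.1, below the floor, in the control, so 2 of 3 were higher in the clone. PSPH, the last enzyme of serine synthesis, read 4187.6, 1736.1 and 298.8 in the clone and 6674.4, 3564.1 and 357.7 in the control, lower on all 3 probe sets. Also named after their values were seen are SLC2A1, PFKFB3 and PFKFB4. SLC2A1, the main basal glucose transporter, read 1487.1 in the clone and 1429.1 in the control. PFKFB3 and PFKFB4, which make the allosteric activator of phosphofructokinase, had log2 ratios of 0.29 and 0.56.

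Transcription factors that act on glycolytic genes were listed together with VHL, EGLN1 and EGLN3, which control the breakdown of hypoxia-inducible factors, and mostly read nearly alike on both arrays. Of these 14 genes, 10 were above the floor on both arrays, with a median log2 ratio of -0.0021. On their brightest probe sets 0 were past 2-fold, against 1.11% of all genes higher and 1.16% lower. MYC read 18403.4 in the clone and 20775.6 in the control, and HIF1A 13415.1 in the clone and 13707.7 in the control. SP1 read 5527 in the clone and 4747.5 in the control, and MAX 4590.3 in the clone and 4448 in the control. Other SP1 probe sets had log2 ratios of -0.025, -0.34 and -1.39. The last of these read 219.1 in the clone, just above the floor, and 574.8 in the control. HIF1A is regulated mainly through protein stability, which arrays do not measure. VHL, which targets HIF1A for breakdown, was the only one of the 10 past 1.5-fold, against 5.27% of all genes higher and 5.92% lower. VHL is named after its value was seen. It read 781.2 in the clone and 418.2 in the control on its brightest probe set, but 86.4 in the clone, below the floor, and 274.7 in the control on the other.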

How the data were processed

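Per the labels, total RNA of 1 MTf clone and 1 vector control was hybridised to Affymetrix U133 Plus 2.0 arrays. The deposited values are linear intensity values, 1 per probe set and array, made with GCOS 1.3 according to the submitters' processing notes. For the summary method and the scaling target, the sources used here give nothing. After trimming 2% at each end, the mean was 1000.12 on both arrays. Of 54675 probe sets, 41097 had 1 gene symbol in the platform annotation, 1801 several and 11777 none; 41043 were updated by gene ID through RefSeq (GRCh38.p14).

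The floor, 208, was the 90th percentile of 191 probe sets for olfactory and taste receptors and hair keratin-associated proteins. A value below it on 1 array gave a bound. All genes were processed together and members read out of that table. The members and lists were chosen with earlier results of these data known. All members are named or counted; of other lists, genes past 2-fold are named and otherwise up to 4 examples, the brightest. Defining cell type markers, and genes the text says were named after their values were seen, are named outside this rule. Alternatives changed the scaling (spikes, quantile, loess), the floor and the choice of probe set. Protein sequences of the isoenzymes were not used here. Analyses ran in Python 3.11.15 with numpy 2.4.6, pandas 2.3.3, statsmodels 0.14.6 and matplotlib 3.10.9, and were tested on simulated data. The number of arrays limits the precision.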

Additional observations from a re-analysis of the deposited data

How the results depend on the processing

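Centring on spikes shifted nearly every member and the counts over all genes. Genes at least 2-fold higher and lower numbered 120 and 125 as deposited, 795 and 28 centred on hybridisation spikes, 12 and 1055 centred on poly-A spikes, 60 and 31 with the floor 2 times as high, and 702 and 1705 with no floor and 50 added; with the floor at the 95th percentile the lower count was 72. Members at least 2-fold higher numbered 2 as deposited, 0 centred on poly-A spikes, and 1 with the floor at the 95th percentile or 2 times as high, where HK1 has only a bound. Centred on hybridisation spikes there were also 2, ALDOC and PC in place of ALDOC and HK1, which then had only a bound. Members at least 2-fold lower numbered 2 centred on poly-A spikes, HK2 and PFKL. The relative median of the members, -0.085, was 0.031 with no floor and 50 added. That setting lets in the 3 dim members, and it also moved the median of all genes from 0.0089 to -0.066. The relative median of upper glycolysis, -0.0096, was 0.11 as the median of probe sets and 0.17 without shared-sequence probe sets, where 5 genes remain. PDHB minus PDHA1 was -0.15 without shared-sequence probe sets. Leaving out the spike centrings, 24 of 31 members kept 1 direction, 10 higher and 14 lower. Quantile normalization and loess moved no member by more than the probe set SD. No paired analysis was possible because each group holds 1 array. No detection calls were used, so dim values rest on the floor alone.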
